A study of Mus musculus with 6 samples.

Results

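The SOCS family comprises the 8 genes *Cish*, *Socs1*, *Socs2*, *Socs3*, *Socs4*, *Socs5*, *Socs6* and *Socs7*, whose proteins inhibit cytokine signalling. Members were the rows of the deposited gene table that carry these symbols, and 8 of 54532 rows were found. The table was made by RNA-seq of primary mouse macrophages in 2 groups of 3 libraries. The wild-type (WT) group came from METRNL+/+ mice. The other group came from mice labelled METRNL-/- or METRNL KO, written KO here. *Metrnl* encodes the secreted protein meteorin-like, and its RNA, given below, was present in both groups. Macrophages of both groups were cultured and then challenged in vitro with the yeast *Candida albicans* for 6 h, so both groups had met the fungus and neither was unchallenged. The labels give no strain, age or site of isolation, and they do not say whether the replicates came from separate mice. The p-values weigh the difference between the groups against the spread of these libraries within a group, and that spread may be technical.

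SOCS proteins are induced by the cytokine pathways that they restrain. A cytokine binds its receptor, Janus kinases (JAKs) on the receptor phosphorylate STAT transcription factors, and the STATs enter the nucleus and switch on target genes, *Cish*, *Socs1*, *Socs2* and *Socs3* among them. Each SOCS protein has a central SH2 domain, which binds phosphotyrosine, and a C-terminal SOCS box, which recruits elongins B and C and cullin 5 into a ubiquitin ligase. SOCS1 and SOCS3 also carry a kinase inhibitory region that blocks JAKs directly. In macrophages SOCS1 is best known for restraining interferon signalling, and SOCS3 for restraining signalling by IL-6 and G-CSF through the receptor chains gp130 and the G-CSF receptor.

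The stretches at the start sites of the 3 members with the highest levels are shown because they hold short motifs that STATs and interferon-regulated factors are known to bind. Windows of 300 bases, from 250 before to 50 after a RefSeq start on GRCm38.p6, were at hand for 4 of the 8 members, *Cish*, *Socs1*, *Socs3* and *Socs4*. Capitals mark matches on either strand to TTCNNNGAA, the gamma-activated sequence bound by STAT dimers, or to GAAANNGAAA, the core of the interferon-stimulated response element. The run for *Socs1* is the 250 bases before the start, chr16:10785537-10785786 on the minus strand. The run for *Socs3* is the 250 bases before the start, chr11:117969367-117969616 on the minus strand. GENCODE M21 models of *Socs3* reach beyond that start, and part of this run lies in an exon of a longer one. The run for *Cish* is 30 bases around the start, chr9:107296654-107296683 on the plus strand.
Socs1: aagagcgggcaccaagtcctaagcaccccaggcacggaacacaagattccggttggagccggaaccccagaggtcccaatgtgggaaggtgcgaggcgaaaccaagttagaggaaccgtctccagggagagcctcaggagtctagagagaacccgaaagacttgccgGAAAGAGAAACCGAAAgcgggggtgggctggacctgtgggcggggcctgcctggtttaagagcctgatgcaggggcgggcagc
Socs3: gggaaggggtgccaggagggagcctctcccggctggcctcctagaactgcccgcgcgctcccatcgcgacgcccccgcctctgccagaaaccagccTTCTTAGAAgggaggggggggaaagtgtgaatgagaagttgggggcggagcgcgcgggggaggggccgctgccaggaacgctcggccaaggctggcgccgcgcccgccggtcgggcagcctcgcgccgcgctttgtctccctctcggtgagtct
Cish: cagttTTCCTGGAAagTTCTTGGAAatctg

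The *Socs1* window held GAAAGAGAAA, whose first base lies 83 bases before the start, and GAAACCGAAA, 77 bases before it, and these overlap by 4 bases. The *Socs3* window held TTCTTAGAA, 154 bases before the start. The *Cish* window held TTCCTGGAA, beginning at the start itself, and TTCTTGGAA, beginning at base 12 of the transcript. GENCODE M21 places both *Cish* matches in a 5′ untranslated exon of a longer transcript. TTCNNNGAA was found in 8.30% of 32851 RefSeq windows of this length, and GAAANNGAAA in 3.44%. The spacing TTCNNNNGAA that STAT6 prefers was found in 6.95% of windows and in none of these 4. No match to any of the 3 motifs was found in the *Socs4* window, which says only that these letters are not there. A match is a description of the sequence and not evidence of binding.

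Values are FPKM, fragment counts per kilobase of gene and scaled per library by the authors, so levels of different genes are compared per length. The total used for that scaling was not proportional to the reads in genes. Relative to those reads, and to the geometric mean of the libraries, it ran from 0.859 in KO replicate 1 to 1.11 in WT replicate 1. Scaling by these reads alone would give lower values in KO replicate 1 and higher values in WT replicate 1. The summed FPKM ran from 311409.5 to 412048.1 and was highest in KO replicate 1. The libraries held 11026529 to 15724897 reads in genes. Differences were tested with limma on log2(FPKM + 1) for the 11689 genes that averaged at least 0.5 FPKM, and a Benjamini-Hochberg adjusted p below 0.05 was called. A log2 fold change is KO minus WT on that scale, which understates changes of low genes, and a fold is a ratio of mean FPKM. The targeted gene did not check the labels, because *Metrnl* had 93.5, 63.2 and 69.8 FPKM in WT replicates 1, 2 and 3 and 51.2, 63.6 and 62.8 in KO replicates 1, 2 and 3 (log2 fold change -0.33, adjusted p = 0.181, limma). KO therefore means the libraries labelled KO. The summed level of 13 macrophage markers was 4979 to 5796 FPKM in WT and 8763 to 9475 FPKM in KO, mostly from *Lyz2*, *Cd14* and *Cd68*. In WT and KO on average, *Adgre1* had 167 and 243 FPKM, *C1qa* 106 and 187, *Csf1r* 88.0 and 111, and *Marco* 78.8 and 20.8. The low markers were *Fcgr1* at 4.75 and 1.24 FPKM, *Mertk* at 1.70 and 2.01 FPKM and *Cd163* at 0.665 and 2.42 FPKM. Of the 13, 6 were called higher and 2, *Marco* and *Fcgr1*, lower. Without both replicate 1 libraries 7 were called higher and 2 lower. The extraction text names retinas, and 10 retinal markers summed to 6.56 to 9.02 FPKM in WT and 10.4 to 15.6 FPKM in KO, mostly from *Rbpms*, at 5.90 to 14.3 FPKM. B cell markers were present as well, and their summed level was 576 to 740 FPKM in WT and 30.7 to 39.1 FPKM in KO.

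Both libraries numbered 1 stood apart from the others of their genotype for many cytokine-regulated genes. *Socs3* in KO replicate 1 was 2.31 times the mean of KO replicates 2 and 3, and *Socs1* was 2.68 times that mean. In WT the order was opposite, and replicates 2 and 3 averaged 1.88 times replicate 1 for *Socs3* and 1.98 times for *Socs1*. For the other 6 members these ratios lay between 0.69 and 1.35. The members' tests, the counts over gene lists and each named gene whose call changed are therefore also given without both replicate 1 libraries. This reduced comparison of 2 with 2 was chosen with earlier results of these data known.

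All 8 members passed the filter on low values, and 3 of them were called. *Socs4* and *Socs7* rose and *Socs2* fell in KO, whereas *Cish*, *Socs1*, *Socs3*, *Socs5* and *Socs6* were not called. Of all genes tested, 28.0% were called, 15.7% as higher and 12.4% as lower, so that 3 of 8 is near the background. With the FPKM rescaled to TPM, a common sum over all 54532 rows, the share of called genes that were higher moved from 55.9% to 31.8%. *Socs1* was then the member called in place of these 3. Groups did not overlap for 4 members, *Cish*, *Socs2*, *Socs4* and *Socs7*, compared with 45.6% of all genes tested. Without both replicate 1 libraries 5 members were called, *Socs1*, *Socs2* and *Socs3* as lower and *Socs4* and *Socs7* as higher, compared with 35.6% of all genes. Of all 11689 genes, 2252 were called higher and 1908 lower in that reduced comparison. The median log2 fold change was -0.08 over the members and 0.03 over all genes, and the median of its absolute size was 0.36 over the members and 0.23 over all genes.

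**Figure D1:**
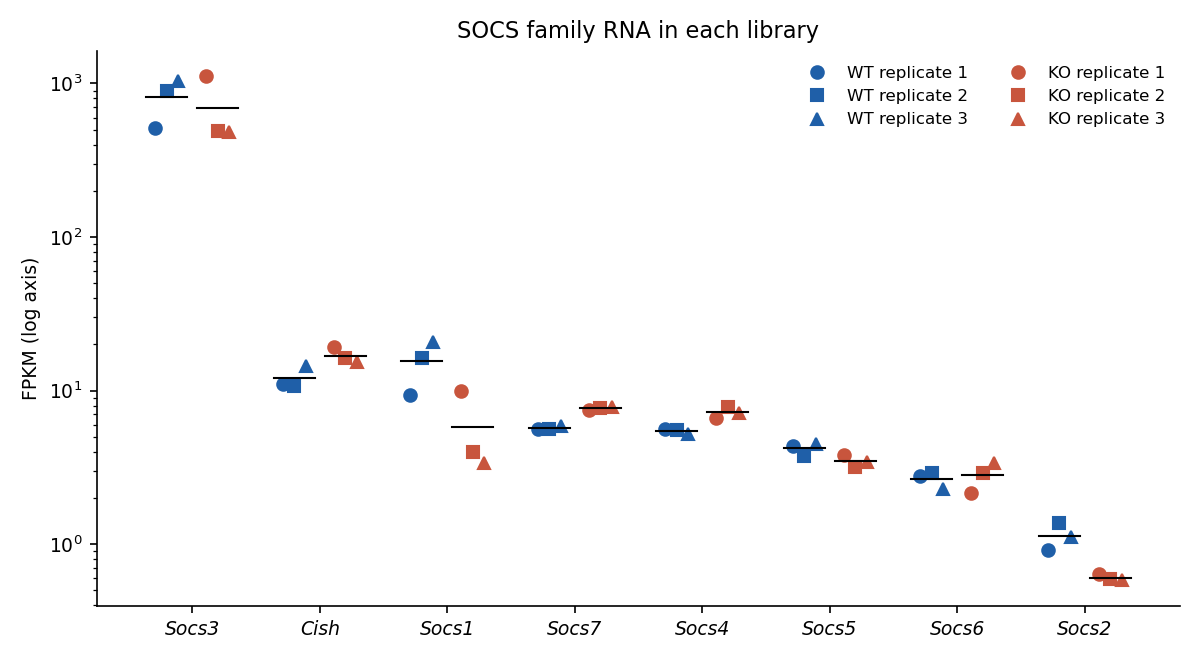
Level of each SOCS family gene in each library, as FPKM on a log axis, with WT and KO libraries as separate colours, the replicate number as the marker shape and a bar at the group mean. *Socs3* lies far above the other 7 genes in all 6 libraries, and *Socs2* is the lowest.

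*Socs3* was by far the most abundant family transcript. The gene (ENSMUSG00000053113, chr11:117966079-117970047, minus strand) ranked 54 of 11689 by mean FPKM and made up 92.0% to 95.7% of the summed FPKM of the 8 members in each library. The mean over 6 libraries was 754 FPKM for *Socs3*, 14.5 for *Cish*, 10.6 for *Socs1*, 6.70 for *Socs7*, 6.35 for *Socs4*, 3.84 for *Socs5*, 2.74 for *Socs6* and 0.870 for *Socs2*. Over the 6 libraries, values did not overlap between *Socs3* and *Cish*, between *Socs4* and *Socs5*, or between *Socs6* and *Socs2*. The other neighbours in this order overlapped, *Cish* with *Socs1*, *Socs1* with *Socs7*, *Socs7* with *Socs4* and *Socs5* with *Socs6*. The plot of levels by gene shows this order, with the 4 members that lack a well-known role in cytokine feedback, *Socs4* to *Socs7*, between 2 and 8 FPKM.

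For *Socs3*, the feedback inhibitor of gp130 and G-CSF receptor signalling, WT replicates 1, 2 and 3 had 513, 894 and 1033 FPKM and KO replicates 1, 2 and 3 had 1119, 488 and 480 FPKM. The highest library was KO replicate 1, the lowest were KO replicates 2 and 3, and the groups overlapped. The means were 813 ± 269 (SD, n = 3) in WT and 696 ± 367 (SD, n = 3) in KO, and *Socs3* was not called (log2 fold change -0.28 ± 0.41 SE, 95% interval -1.27 to 0.70, adjusted p = 0.649, limma). That interval spans changes of more than 1 log2 unit in the lower direction. Without both replicate 1 libraries *Socs3* was called lower, at -0.99 (adjusted p = 0.00316, limma). The summed FPKM of the family followed *Socs3*, at 553, 940 and 1087 in WT and 1169, 531 and 521 in KO. Without *Socs3* the sum of the other 7 lay between 39.9 and 54.4 FPKM in all libraries.

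*Socs1* encodes the inhibitor of interferon receptor signalling, and its gene (ENSMUSG00000038037) spans chr16:10782240-10785536 on the minus strand. Its levels were 9.37, 16.3 and 20.9 FPKM in WT replicates 1, 2 and 3 and 9.89, 3.99 and 3.40 FPKM in KO replicates 1, 2 and 3. The groups overlapped through the pair of replicate 1 libraries alone, where KO was slightly above WT. The other KO libraries were lower than every WT library. Mean *Socs1* was 15.5 ± 5.78 FPKM (SD, n = 3) in WT and 5.76 ± 3.59 (SD, n = 3) in KO, a ratio of 2.69 between WT and KO, which missed the threshold (log2 fold change -1.35 ± 0.41 SE, 95% interval -2.35 to -0.35, adjusted p = 0.0552, limma). Without both replicate 1 libraries *Socs1* was called, with a WT mean 5.04 times the KO mean (log2 fold change -2.06, adjusted p = 0.00166, limma). It was also called lower after leaving out WT replicate 1 (adjusted p = 0.0378) or KO replicate 1 (adjusted p = 0.0173) alone, in the TPM scaling (adjusted p = 0.0226), and when limma's voom was run on the reads recovered from the FPKM (adjusted p = 0.0289). *Socs1* was not called without WT replicate 2 (0.149), WT replicate 3 (0.155), KO replicate 2 (0.156) or KO replicate 3 (0.154, limma). Nor was it called with no filter on low values (0.124) or with a replicate block (0.162, limma).

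*Cish* encodes CIS, an inhibitor of STAT5 signalling from cytokine receptors such as those of IL-2 and GM-CSF. The gene (ENSMUSG00000032578) spans chr9:107296026-107302784 on the plus strand. WT replicates 1, 2 and 3 had 11.1, 10.7 and 14.5 FPKM and KO replicates 1, 2 and 3 had 19.2, 16.2 and 15.3 FPKM. All 3 KO libraries were above all 3 WT libraries, with the closest values less than 1 FPKM apart. The means, 12.1 ± 2.09 in WT and 16.9 ± 2.02 in KO (SD, n = 3 each), had a ratio of 1.39, and the difference missed the threshold (log2 fold change 0.45 ± 0.14 SE, adjusted p = 0.0507, limma). It was 0.31 without both replicate 1 libraries (adjusted p = 0.169, limma), and it passed the threshold without WT replicate 3 (adjusted p = 0.0296) and with voom (adjusted p = 0.0306). The annotated genes *Gm17040* and *Gm17041* overlap *Cish* on the opposite strand. Their rows held 6 and 0 reads over all libraries, and whether the authors' counting used strand is not given in the sources used here.

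*Socs2*, best known as a regulator of growth hormone receptor signalling, was the least abundant member and the sole one called lower with all 6 libraries. The gene (ENSMUSG00000020027) spans chr10:95385362-95417180 on the minus strand. It had 0.923, 1.38 and 1.11 FPKM in WT replicates 1, 2 and 3 and 0.640, 0.592 and 0.581 FPKM in KO replicates 1, 2 and 3. The groups did not overlap, and the KO libraries were much closer to each other than the WT libraries were. The means were 1.14 ± 0.231 in WT and 0.604 ± 0.0313 in KO (SD, n = 3 each), a ratio of 1.88 between WT and KO (log2 fold change -0.41 ± 0.11 SE, adjusted p = 0.0332, limma), and -0.50 without both replicate 1 libraries (adjusted p = 0.0340). These values rest on 78 to 155 reads per library, and the call was lost in TPM (adjusted p = 0.0538), with no filter on low values (0.0986), after quantile normalization (0.0946) and on leaving out WT replicate 2 (0.0777), WT replicate 3 (0.0863), KO replicate 1 (0.0605), KO replicate 2 (0.0988) or KO replicate 3 (0.102).

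*Socs4* and *Socs7*, whose substrates are less well defined than those of the members above, rose together by similar amounts. *Socs7* (ENSMUSG00000038485, chr11:97362551-97398542, plus strand) had 5.64, 5.59 and 5.89 FPKM in WT replicates 1, 2 and 3 and 7.53, 7.67 and 7.84 FPKM in KO replicates 1, 2 and 3. Its groups were far apart, and its ratio of highest to lowest library within a group, 1.05 in WT and 1.04 in KO, was the smallest of the 8. Mean *Socs7* was 5.71 ± 0.164 FPKM in WT and 7.68 ± 0.156 in KO (SD, n = 3 each), a 1.35-fold rise (log2 fold change 0.37 ± 0.06 SE, adjusted p = 0.00689, limma), and by 0.38 without both replicate 1 libraries (adjusted p = 0.0165). *Socs4* (ENSMUSG00000048379, chr14:47276931-47296102, plus strand) had 5.64, 5.53 and 5.24 FPKM in WT replicates 1, 2 and 3 and 6.68, 7.83 and 7.19 FPKM in KO replicates 1, 2 and 3. Again each KO library exceeded each WT library. Mean *Socs4* was 5.47 ± 0.208 FPKM in WT and 7.23 ± 0.575 in KO (SD, n = 3 each), a 1.32-fold rise (log2 fold change 0.35 ± 0.08 SE, adjusted p = 0.0194, limma), and by 0.41 without both replicate 1 libraries (adjusted p = 0.0181). In TPM both kept their direction and lost the call, at adjusted p = 0.158 for *Socs7* and 0.279 for *Socs4*. The call for *Socs4* was also lost on leaving out WT replicate 2, WT replicate 3, KO replicate 2 or KO replicate 3, with adjusted p from 0.0524 to 0.0701.

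*Socs5*, described as an inhibitor of IL-4 and epidermal growth factor receptor signalling, was not called. The gene (ENSMUSG00000037104) spans chr17:87107679-87137583 on the plus strand. Its levels were 4.39, 3.77 and 4.47 FPKM in WT replicates 1, 2 and 3 and 3.81, 3.20 and 3.42 FPKM in KO replicates 1, 2 and 3. KO replicate 1 was just above WT replicate 2, so the groups overlapped (log2 fold change -0.22 ± 0.09 SE, adjusted p = 0.119, limma). *Socs6* (ENSMUSG00000056153, chr18:88665224-88927481, minus strand), whose protein binds the receptor tyrosine kinases KIT and FLT3, had 2.79, 2.89 and 2.29 FPKM in WT replicates 1, 2 and 3 and 2.17, 2.89 and 3.39 FPKM in KO replicates 1, 2 and 3. KO replicate 1 was its lowest library and KO replicate 3 its highest, and the difference was within the spread (log2 fold change 0.05 ± 0.14 SE, adjusted p = 0.815, limma) and changed sign in TPM (-0.01).

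**Figure D2:**
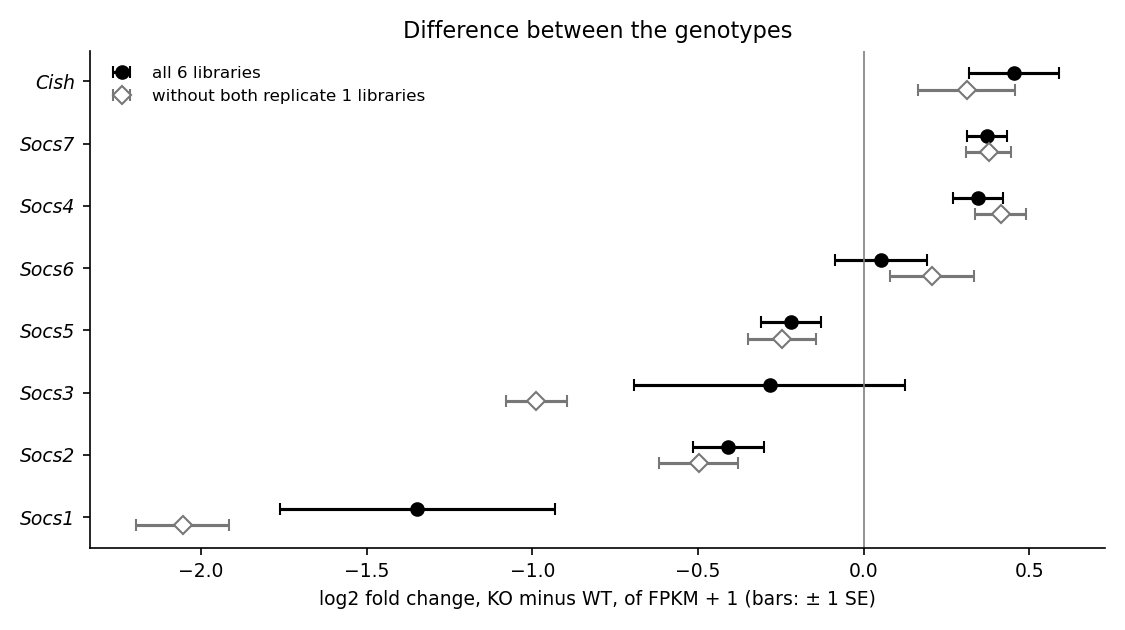
Log2 fold change of each SOCS family gene, KO minus WT, of log2(FPKM + 1), with 1 SE to each side, for all 6 libraries (filled) and without both replicate 1 libraries (open). *Socs3* moves from -0.28 to -0.99 and *Socs1* from -1.35 to -2.06, whereas *Socs7* stays at 0.37 and 0.38.

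As the plot of log2 fold changes shows, leaving out both replicate 1 libraries moved *Socs1* and *Socs3* most and narrowed their errors. The other 6 members moved by less than 0.2.

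The genes whose levels over the libraries were most like those of a member were sought. Likeness was measured as Pearson's r of log2(FPKM + 1) over the 6 libraries among 4738 genes, as a description, since the libraries share genotype and the replicate 1 pattern. The genes most like *Socs3* were *Csf3*, which encodes G-CSF (r = 0.9993), *Ehd1* (0.9975) and the chemokine gene *Ccl3* (0.997). *Csf3* had 1453, 2922 and 3343 FPKM in WT replicates 1, 2 and 3 and 3831, 1415 and 1380 FPKM in KO replicates 1, 2 and 3. *Csf3* thus had the same libraries high and low as *Socs3*, and the ratio of *Csf3* to *Socs3* stayed between 2.83 and 3.42 in all 6 libraries. That ratio was chosen after its values were seen, among at least 7 ratios of a member to another gene that were computed.

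The genes most like *Socs1* were *Acod1*, which encodes the itaconate-producing enzyme (r = 0.9984), the interferon-inducible *Ifi203* (0.9981) and *Parp12* (0.9968). *Acod1* had 396, 540 and 603 FPKM in WT replicates 1, 2 and 3 and 403, 235 and 226 FPKM in KO replicates 1, 2 and 3. KO replicate 1 and WT replicate 1 were nearly level for *Acod1*, as they were for *Socs1*. Genes nearest to the other members included *Arpc3*, *Cd53* and *Dpp9* for *Cish*, *Irf2bp2* and *Gpr183* for *Socs2*, *Sestd1*, *Nkiras2* and *Cnih1* for *Socs4*, *Map7d1*, *Med29* and *Snd1* for *Socs5*, and *Rnf115* and *Ak4* for *Socs7*, with r from 0.9886 to 0.9984. For *Socs6* they were *Metap1*, *Vipas39* and *Slc25a24*, with r from 0.9583 to 0.97.

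**Figure D3:**
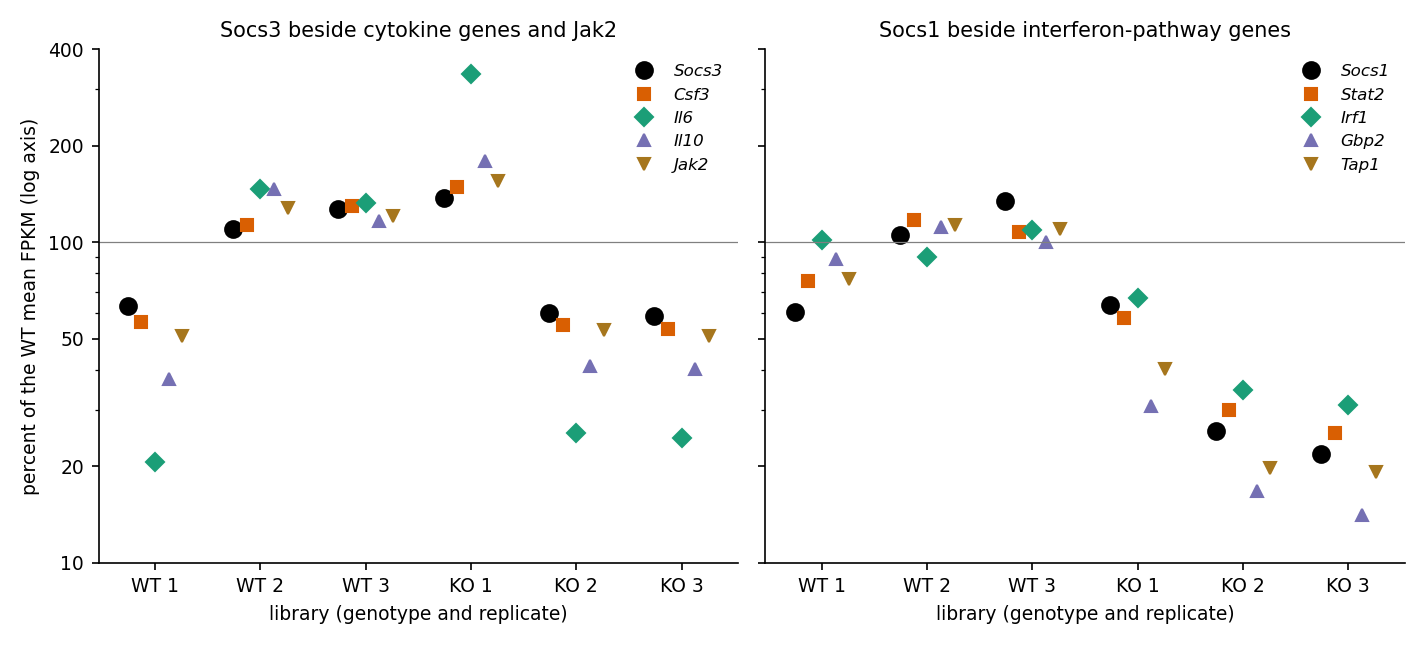
Level in each library as a percent of the WT mean FPKM, on a log axis, for *Socs3* with *Csf3*, *Il6*, *Il10* and *Jak2* (left) and for *Socs1* with *Stat2*, *Irf1*, *Gbp2* and *Tap1* (right). On the left WT replicate 1 is low and KO replicate 1 high, and on the right all KO libraries of the companion genes lie below the WT mean.

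The ratio of *Socs3* to *Socs1* separated the groups, which overlapped for each gene alone. The ratio of *Socs3* to *Socs1* FPKM was 54.7, 54.7 and 49.5 in WT replicates 1, 2 and 3 and 113, 122 and 141 in KO replicates 1, 2 and 3. Every KO ratio was above every WT ratio, and KO replicate 1 had the lowest of the KO ratios. The mean ratio was 53.0 ± 3.01 in WT and 126 ± 14.4 in KO (SD, n = 3 each), 2.37 times as high in KO. This pair was chosen after its values were seen, and 12 of the 28 pairs of members had ratios that did not overlap between the groups, so no test is given.

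**Figure D4:**
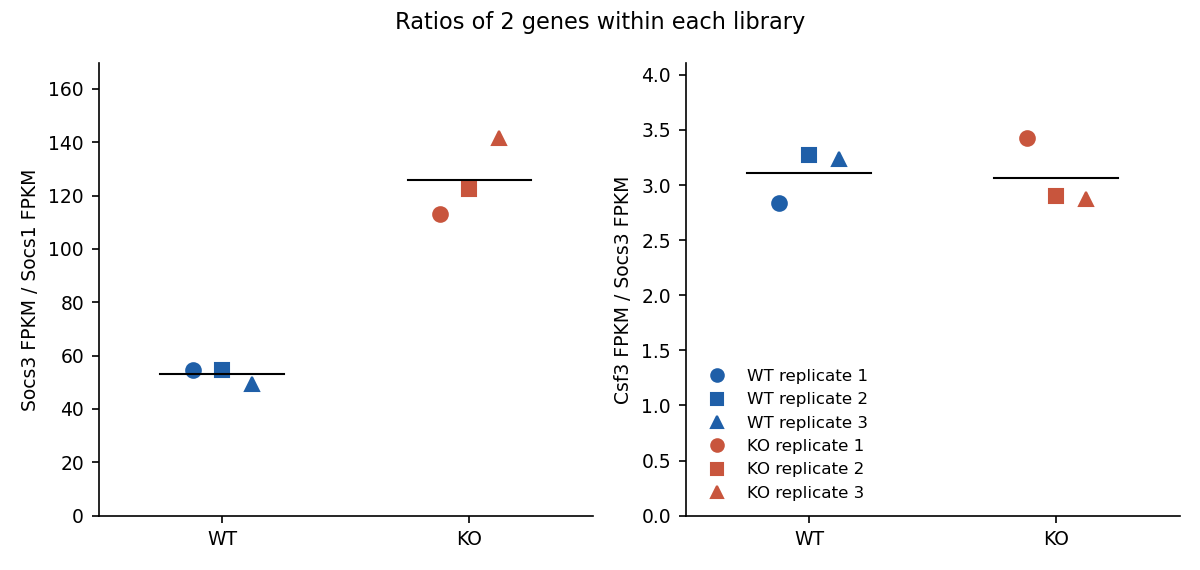
Ratio of *Socs3* to *Socs1* FPKM (left) and of *Csf3* to *Socs3* FPKM (right) in each library, on axes that start at 0, with a line at the group mean. *Socs3* to *Socs1* is 49.5 to 54.7 in WT and 113 to 141 in KO, and *Csf3* to *Socs3* is 2.83 to 3.42 over all libraries.

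As the plot of ratios shows, WT replicate 1 had the lowest and KO replicate 1 the highest ratio of *Csf3* to *Socs3*, whereas for *Socs3* to *Socs1* both lay on the side of their own genotype.

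Of 18 tested ligands that signal through JAKs and so could induce or be restrained by SOCS proteins, *Osm*, which encodes oncostatin M, was the sole one called. It had 173, 118 and 172 FPKM in WT replicates 1, 2 and 3 and 351, 273 and 272 FPKM in KO replicates 1, 2 and 3, a 1.94-fold rise (adjusted p = 0.0124, limma). No ligand was called lower by limma on FPKM or by voom, and 1 was lower at an unadjusted p below 0.05. In the reduced comparison 10 of the 18 were called lower, compared with 1908 of all 11689 genes. Leaving out KO replicate 1 alone gave 2 ligands called lower. *Il6*, an inducer of *Socs3* through gp130, had 12.5, 89.0 and 80.1 FPKM in WT replicates 1, 2 and 3 and 203, 15.4 and 14.9 FPKM in KO replicates 1, 2 and 3. *Il10*, whose receptor signals through STAT3, had 44.5, 175 and 139 FPKM in WT and 214, 49.0 and 48.0 FPKM in KO in the same order. Like *Socs3*, both were high in KO replicate 1 and low in WT replicate 1 and KO replicates 2 and 3, and neither was called with all 6 libraries (adjusted p = 0.879 for *Il6* and 0.754 for *Il10*, limma). As for *Socs3*, the reduced comparison called both lower, at -2.40 for *Il6* (adjusted p = 0.00044) and -1.66 for *Il10* (adjusted p = 0.00185), and also *Csf3*, at -1.16 (adjusted p = 0.0026). *Csf2*, *Ifng* and *Ifnb1* also had their highest library in KO replicate 1, at 113, 3.14 and 1.88 FPKM, and were not called (adjusted p = 0.67, 0.845 and 0.902). Of these, *Ifnb1* was called lower in the reduced comparison, at -0.91 (adjusted p = 0.00816).

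Receptors for these ligands moved in both directions. Of 8 tested class II cytokine receptors, which include the receptors of interferons and IL-10, 4 were called higher and 0 lower (0 lower also with voom and at an unadjusted p below 0.05). They were *Il10rb* (1.35-fold), *Il20rb* (1.80-fold), *Ifngr1* (1.23-fold) and *Ifnar1* (1.32-fold), with adjusted p from 0.00587 to 0.0421. In TPM 0 of these 8 were called higher, 4 were higher at an unadjusted p below 0.05 and 1 was called lower. The reduced comparison called 3 higher and 1 lower. There *Ifngr1* lost its call (adjusted p = 0.0603), and *Il10ra*, named after its values were seen, was called lower at -0.65 (adjusted p = 0.00999). Of 7 tested receptors of the gp130 and G-CSF group, *Il11ra1* (2.10-fold) and *Lifr* (1.35-fold) rose, and *Il6st*, which encodes gp130 itself, fell from 6.33 ± 0.519 to 4.89 ± 0.0958 FPKM (SD, n = 3 each; adjusted p = 0.0254, limma). *Csf3r*, the receptor through which SOCS3 restrains G-CSF, had 29.7 ± 8.87 FPKM in WT and 32.2 ± 19.6 in KO (SD, n = 3 each; adjusted p = 0.99) and was named after its values were seen. In TPM 1 receptor of this group was called higher and 0 lower, with 2 lower at an unadjusted p below 0.05. The reduced comparison called 1 higher and 3 lower. There *Lifr* lost its call (adjusted p = 0.0904) and *Csf3r* was called lower at -0.71 (adjusted p = 0.00222). *Csf3r* is also a neutrophil marker. The summed level of 12 neutrophil markers, mostly *S100a8* and *S100a9*, was 976 to 1302 FPKM in WT and 734 to 843 FPKM in KO. Mean *S100a8* was 734 FPKM in WT and 361 in KO, whereas *S100a9* had 297 and 304 FPKM (adjusted p = 0.831, limma). Of 10 neutrophil markers tested, 2 were called lower and 8 were not called, and the reduced comparison called 4 lower. The part of neutrophils in the values for *Csf3r* was not tested.

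Of 14 tested common-chain and hormone receptors, many of which induce *Cish* and *Socs2* through STAT5, 5 were called higher and 5 lower. In TPM 0 were called higher, 3 were higher at an unadjusted p below 0.05, and 5 were called lower. The reduced comparison called 4 higher and 6 lower. The 4 with the smallest p all fell, and WT to KO ratios were 32.5 for *Il5ra*, 6.24 for *Il21r*, 2.88 for *Il2rb* and 3.47 for *Il15ra* (adjusted p from 0.000263 to 0.00546, limma). These ratios rest on low KO levels. Means in WT and KO were 2.58 and 0.0794 FPKM for *Il5ra*, 10.3 and 1.65 for *Il21r*, 3.08 and 1.07 for *Il2rb*, and 2.07 and 0.597 for *Il15ra*. At a filter of 2 FPKM 12 receptors of this list were tested, with 5 called higher and 3 lower. The growth hormone receptor gene *Ghr*, named after its values were seen, was below the filter, at 0.069 FPKM in WT and 0.053 in KO on average. B cell markers moved with these falls, with 13 of 13 tested called lower and summed levels that did not overlap. Of 6 tested T and NK cell markers 5 were called lower, with WT to KO ratios of 4.45 for *Trbc2*, 2.88 for *Trac* and 5.03 for *Lck*. The 1 called higher was *Il7r*, which is also on this receptor list and dominates the summed level of 12 T and NK cell markers (59.0 to 66.1 FPKM in WT and 71.4 to 88.2 FPKM in KO). Of 10 tested dendritic cell markers 7 were called lower, with summed levels of 194 to 278 FPKM in WT and 93.2 to 106 FPKM in KO. The part of such cells in the levels of *Socs1*, *Socs2* and these receptors was not tested. In bulk RNA, fewer cells of a type and less RNA per cell cannot be told apart.

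Among the kinases and transcription factors that SOCS proteins act on, 1 of 4 JAKs and 3 of 6 STATs were called lower and 1 STAT higher. Of the JAKs, *Jak3* fell, with a WT to KO ratio of 1.67 (adjusted p = 0.00631, limma). *Jak1* had means of 61.4 and 61.9 FPKM (adjusted p = 0.988), *Tyk2* 6.25 and 5.31 FPKM (adjusted p = 0.0708), and *Jak2* 65.4 and 56.7 FPKM (adjusted p = 0.72) in WT and KO. *Jak2* followed the *Socs3* pattern, at 33.3, 83.7 and 79.3 FPKM in WT replicates 1, 2 and 3 and 102, 34.8 and 33.3 FPKM in KO replicates 1, 2 and 3. In the reduced comparison *Jak2* was called lower, at -1.23 (adjusted p = 0.000861). Of 6 STAT genes described here 3 were called lower, and WT to KO ratios were 2.64 for *Stat2*, 4.19 for *Stat4* and 1.49 for *Stat5b* (adjusted p from 0.00276 to 0.0350, limma). *Stat6*, which carries IL-4 and IL-13 signals, rose 1.22-fold (adjusted p = 0.0383), a call lost without both replicate 1 libraries (adjusted p = 0.0614). In TPM 0 of these 6 were called higher, 1 was higher at an unadjusted p below 0.05, and 3 were called lower. *Stat3*, the main inducer of *Socs3*, had 54.9, 69.3 and 65.3 FPKM in WT replicates 1, 2 and 3 and 92.7, 72.7 and 74.6 FPKM in KO replicates 1, 2 and 3. Its groups did not overlap, and it was not called (adjusted p = 0.105, limma). *Stat5a* had 18.5 and 18.2 FPKM (adjusted p = 0.898), and was called lower in the reduced comparison, at -0.76 (adjusted p = 0.00246). The 13 of 13 B cell markers and 5 of 6 T and NK cell markers that were called lower moved with *Jak3*, *Stat2*, *Stat4* and *Stat5b*, and their part in these falls was not tested.

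Genes downstream of these cytokines were counted by list. Of 13 tested genes induced by interferons, whose signalling SOCS1 restrains, 8 were called lower and 0 higher (0 higher also with voom and at an unadjusted p below 0.05). The 4 with the smallest p had WT to KO ratios of 7.34 for *Ciita*, 5.20 for *Psmb9*, 4.87 for *Gbp2* and 3.79 for *Tap1* (adjusted p from 0.000169 to 0.00617, limma). The median log2 fold change of these 13 genes was -1.46, compared with 0.03 over all genes. In the reduced comparison all 13 were called lower, as *Socs1* was, compared with 1908 of all 11689 genes. The groups did not overlap for 8 of the 13, compared with 45.6% of all genes tested. *Irf1*, named after its values were seen and plotted beside *Socs1*, is among these 8. *Gbp3*, also named after its values were seen, shared the pattern of *Socs1*, at 3.84, 8.09 and 6.95 FPKM in WT replicates 1, 2 and 3 and 4.29, 1.05 and 0.817 FPKM in KO replicates 1, 2 and 3. *Ciita*, whose protein switches on MHC class II transcription, is also active in B cells and dendritic cells, whose markers fell. Their part in these values was not tested.

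Of 12 tested targets of STAT3 and IL-10, 0 were called in either direction by limma on FPKM or by voom, and 1 was higher at an unadjusted p below 0.05. In TPM 1 was called higher. The reduced comparison called 7 of the 12 lower and 0 higher, also at an unadjusted p below 0.05. Of all 11689 genes it called 1908 lower. Their median log2 fold change was 0.03. As for *Socs3*, the groups overlapped for most of them, and they did not overlap for 2 of the 12, compared with 45.6% of all genes tested. Of 10 tested STAT5 targets, *Osm* and *Id2* (1.31-fold) rose and *Id1* fell with a WT to KO ratio of 2.10. Of these 10, the reduced comparison called 2 higher and 5 lower. Of 15 tested STAT6 targets, 8 rose and 4 fell. In the reduced comparison 11 were called higher and 4 lower. The 4 with the smallest p were *Chil3* (4.27-fold higher), *Retnla* (3.35-fold higher), *Mgl2* (2.88-fold higher) and *Pdcd1lg2*, which encodes PD-L2 and had a WT to KO ratio of 3.20 (adjusted p from 0.000108 to 0.000406, limma).

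**Figure D5:**
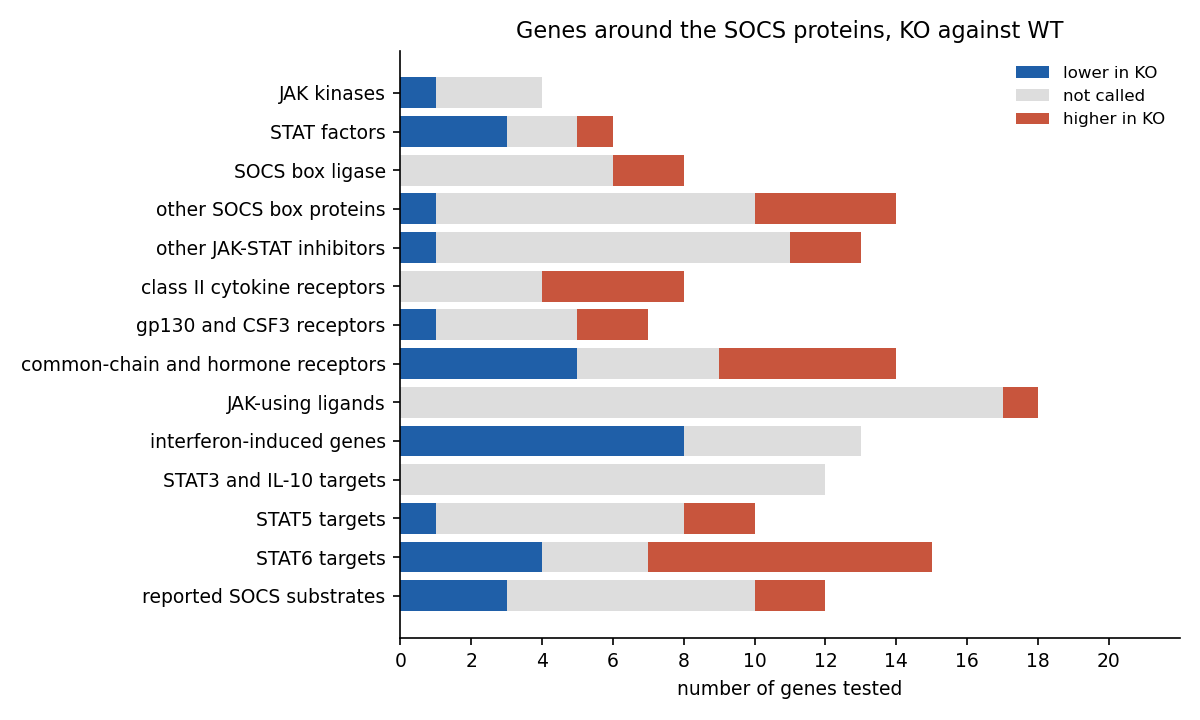
Number of tested genes in each of 14 lists around the SOCS proteins that were called lower in KO, not called, or called higher in KO (adjusted p below 0.05, limma). Interferon-induced genes have 8 lower and 0 higher, STAT3 and IL-10 targets have 12 not called, and STAT6 targets have 8 higher and 4 lower.

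Of 8 genes for the ligase that the SOCS box recruits, 2 were called higher and 0 lower. *Cul5*, the cullin scaffold, had 2.96 ± 0.115 FPKM in WT and 4.18 ± 0.285 in KO (SD, n = 3 each), a 1.41-fold rise (adjusted p = 0.0118, limma). *Rnf7*, the RING protein that pairs with cullin 5, had 13.9 ± 1.40 FPKM in WT and 19.6 ± 0.204 in KO (SD, n = 3 each), also a 1.41-fold rise (adjusted p = 0.00936, limma). The elongin genes *Elob* (38.6 and 34.7 FPKM in WT and KO) and *Eloc* (16.8 and 16.5 FPKM) were not called, at adjusted p = 0.305 and 0.933. In the reduced comparison *Eloc* was called lower, at -0.26 (adjusted p = 0.0428). Ligase genes called lower numbered 0 with voom and at an unadjusted p below 0.05, and 1 after quantile normalization. In TPM 0 were called in either direction with 2 higher at an unadjusted p below 0.05.

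Other proteins share the SOCS box but lack the SH2 domain, and of 27 such genes 14 passed the filter. *Neurl2* (1.90-fold), *Spsb2* (1.48-fold), *Wsb2* (1.34-fold) and *Asb6* (1.22-fold) rose. *Spsb1* fell from 2.05 ± 0.262 to 0.537 ± 0.117 FPKM (SD, n = 3 each; adjusted p = 0.00181, limma). In TPM 1 of the 14 was called higher and 1 lower. The reduced comparison called 3 higher and 1 lower, and there *Spsb2* (adjusted p = 0.0604) and *Asb6* (adjusted p = 0.0538) lost their calls. JAK-STAT inhibitors outside the family numbered 13 tested genes. *Pias2* (1.36-fold), a SUMO ligase, and *Cbl* (1.37-fold), a ubiquitin ligase, rose, and *Ptpn6*, which encodes the phosphatase SHP-1, had a WT to KO ratio of 1.33 (adjusted p from 0.00922 to 0.0341, limma). Of these 13, the reduced comparison called 4 higher and 4 lower. In TPM 0 were higher, also at an unadjusted p below 0.05, and 1 was called lower.

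Among 12 tested genes whose proteins are reported SOCS targets, 2 rose and 3 fell, and the reduced comparison called 1 higher and 3 lower. *Flt3* and *Kit*, receptor kinases bound by SOCS6, had WT to KO ratios of 4.31 and 3.45, and *Egfr*, bound by SOCS5, had 1.96 (adjusted p from 0.00199 to 0.0316, limma). These are ratios of low levels. Means in WT and KO were 1.74 and 0.403 FPKM for *Flt3*, 0.873 and 0.253 for *Kit*, and 0.825 and 0.421 for *Egfr*. At a filter of 2 FPKM 7 genes of this list were tested, with 3 called higher and 0 lower. *Nck1*, an adaptor bound by SOCS7, rose 1.53-fold (adjusted p = 0.00502, limma), in the same direction as *Socs7*. *Flt3* is also a dendritic cell marker and *Kit* a mast cell marker, and the summed level of 8 mast cell and basophil markers was 6.62 to 7.95 FPKM in WT and 0.926 to 1.56 FPKM in KO. The part of those cells in the values for *Flt3* and *Kit* was not tested.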

How the data were processed

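The authors deposited 1 table of FPKM per gene for 6 libraries, 3 per genotype, aligned to GRCm38 (mm10), per the submitters' processing notes. Trizol extraction and a TruSeq kit are given per the labels' protocols. How reads were aligned, and counted with or without strand, was not given in the sources used here. In each library the deposited FPKM, multiplied by gene length, came in whole steps (100% of values, within 0.05 of a step), and the number of steps was taken as reads, for depth and for limma's voom.

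Groups and replicate numbers came from the sample titles. Tests used limma 3.58.1 in R 4.3.3 on log2(FPKM + 1) for genes that averaged at least 0.5 FPKM, with genotype alone in the model, eBayes with an intensity trend and Benjamini-Hochberg adjustment over all 11689 genes at 0.05. The scripts were tested on simulated data. Alternatives were a pseudocount of 0.1, no filter, a filter at 2 FPKM, TPM, quantile normalization, voom, robust eBayes, a replicate block and leaving out libraries. TPM are FPKM rescaled to a common sum over all rows of the deposited table, and the same 11689 genes were then tested.

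The members, the gene lists and the library splits were chosen with earlier results of these data known. Named genes were the 8 members, all JAKs, the STATs, *Cul5*, *Elob*, *Eloc*, *Rnf7*, *Metrnl*, *Il6*, *Il10*, *Csf2*, *Csf3*, *Ifng* and *Ifnb1*, up to 4 called genes with the smallest p in each other list, and the 3 genes most like each member among tested genes that averaged at least 5 FPKM. Sequences are from RefSeq. Some genes that this rule names are not reported here.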

Additional observations from a re-analysis of the deposited data

How the results depend on the processing

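Over 15 alternatives, or 14 for *Socs2*, which a filter at 2 FPKM removes, the direction held in all for each member except *Socs6*, which kept it in 12. *Socs7* was called in 13, *Socs4* in 9, *Socs1* in 7, *Socs2* in 5, *Cish* in 3, *Socs3* in 1 (adjusted p from 0.00316 to 0.927), and *Socs5* and *Socs6* in 0. Members called higher numbered 2, and 0 in TPM (2 at an unadjusted p below 0.05 with limma). Members called lower numbered 1, and 0 with no filter (2 unadjusted) and 2 with voom. Leaving out libraries gave 1 to 2 higher and 0 to 3 lower. Among all genes 1833 were higher, and 542 in TPM, and 1445 were lower, and 876 at a filter of 2 FPKM. Leaving out libraries gave 912 to 2252 higher and 851 to 1908 lower. Leaving out WT replicate 2, WT replicate 3, KO replicate 2 or KO replicate 3 lowered these counts most. The cause was not tested.

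The sample titles do not say whether equal replicate numbers pair the samples. Deviations of same-numbered libraries from their group means correlated at -0.505, -0.191 and -0.158. With 3 libraries per group these deviations are not independent, so they cannot decide whether the numbers pair samples. With a replicate block 479 genes were higher and 604 lower, and 0 members were called (3 higher and 1 lower unadjusted, limma), with *Socs7* at an adjusted p of 0.0595. *Socs2*, at 78 to 155 reads per library, is limited most by depth.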
